A study of Mus musculus with 32 samples.

Results

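*Tnfsf13*, the gene for the B cell survival cytokine APRIL, was followed through mouse macrophages and immature dendritic cells (iDCs), all differentiated with IL-4, of mice that kept or lost their intact *Pparg* allele. It is 1 gene, read by 1 probe (listed against transcript NM_023517.1), out of 33012 noncontrol probes on each array. The gene was chosen by its signals in these same samples. Its levels and differences are therefore given as a description, with their spread and without a test.

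Bone marrow came from the femur of 8 C57Bl/6 mice carrying the *LysCre* transgene, in which the lysozyme promoter drives Cre recombinase in myeloid cells. Mice 1 to 4 were Pparg+/- LysCre, which keep 1 intact *Pparg* allele beside the null one. Mice 5 to 8 were Pparg fl/- LysCre, in which Cre removes the loxP-flanked allele, so that no group here had 2 intact alleles. Each mouse gave macrophages (M-CSF and IL-4, each at 20 ng/ml) and iDCs (GM-CSF and IL-4, each at 20 ng/ml). Both kinds of culture received either vehicle (DMSO:ethanol) or 1 μM of the PPARγ agonist rosiglitazone (RSG) for 9 days by the sample labels. All groups thus shared IL-4 and the *LysCre* transgene. The 32 arrays form 8 groups of 4 mice. The ages of the mice are not given in the sources used here, and Cre acts only as far as the lysozyme promoter is active in the cultured cells.

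APRIL is a ligand of the TNF superfamily. It is cut by furin inside the producing cell, is released as a soluble trimer, and binds the receptors TACI and BCMA on B lineage cells as well as heparan sulfate chains of proteoglycans. Myeloid cells are a known source, and the cytokine is best known for sustaining plasma cells and for class switching to IgA.

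The gene lies on the minus strand of chromosome 11, at chr11:69682577-69685554 in the RefSeq annotation of GRCm38.p6, and has 2 RefSeq transcripts. The readthrough gene *Tnfsfm13* (chr11:69682577-69696098), which joins *Tnfsf12* to *Tnfsf13*, and the long noncoding gene *Tnfsf13os* (chr11:69682032-69691141) both overlap it. The probe's own sequence was not among the data used here, so transcripts of these overlapping genes and of *Tnfsf13* cannot be told apart. Since RSG acts through a nuclear receptor that binds DNA, the 250 bases just before the annotated start (chr11:69685555-69685804, minus strand, RefSeq, GRCm38.p6) are shown 5′ to 3′, with the only match to any searched motif in capitals.

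Tnfsf13 promoter: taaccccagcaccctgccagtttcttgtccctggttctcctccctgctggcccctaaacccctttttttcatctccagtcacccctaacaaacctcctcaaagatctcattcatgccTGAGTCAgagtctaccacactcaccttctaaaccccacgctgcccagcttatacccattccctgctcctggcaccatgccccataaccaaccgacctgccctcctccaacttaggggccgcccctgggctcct

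The capitals mark TGAGTCA, the AP-1 type motif, which begins 133 bases before the start. That motif was searched only after the sequence had been read, and 4.46% of the 32851 promoter windows of this length hold it on either strand. The nuclear receptor half-site AGGTCA was not found in this window (14% of all windows hold it). Neither was the PPAR:RXR direct repeat, AGGTCA and AGGTCA with 1 base between them, which contains the half-site (0.0335% of windows), nor the STAT6-type motif, TTC and GAA with 4 bases between them (5.85%). Both strands were searched. These letters are absent from this window only, and sites elsewhere were not looked for.

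On every array the *Tnfsf13* probe was far above background. Its signal-to-noise ratio (S/N), for which a value of at least 3 was taken as detection, ran from 45.4 to 93.3. Signals before scaling ran from 12304 to 59061, and the scanner's SD of a signal was 1.07% to 2.20% of it. A quality flag of 64 stood beside the probe on 2 arrays, vehicle-treated iDCs of mouse 1 and RSG-treated iDCs of mouse 4, and a flag of 0 on the others. The meaning of the flag is not given in the sources used here.

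Between 41.2% and 50.5% of the noncontrol probes were detected per array, and the number of arrays limits the precision. The 4 scan days each held 2 mice of 1 genotype, so genotypes were never compared within a day. The arrays of mouse 5 stood apart from those of its label. All 4 of them correlated better, over the 16620 tested probes, with the other genotype's arrays than with those of their own, as did 0 of 4 arrays of every other mouse. Their mean r was near 0 with the Pparg+/- LysCre mice (-0.03 to 0.06) and -0.36 to -0.24 with the other Pparg fl/- LysCre mice. Among Pparg+/- LysCre arrays themselves mean r was -0.04 to 0.22. These r are not of the levels themselves, which correlated at 0.94 to 0.97 within groups. In vehicle-treated macrophages, limma called 26 of the 16620 probes between the genotypes with mouse 5 and 2488 without it (0.156% and 15%). In vehicle-treated iDCs it called 471 and 2029 (2.83% and 12.2%). The *Tnfsf13* means and differences of the Pparg fl/- LysCre label are therefore given with and without this mouse, whereas values of other genes include it unless stated. The probe of *Pparg* has no symbol in the tables used here, so its loss was not analysed.

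*Tnfsf13* was highest in RSG-treated Pparg+/- LysCre macrophages and lowest in vehicle-treated iDCs of the same genotype. Levels are log2 signals after quantile normalization over the 32 arrays. In vehicle-treated Pparg+/- LysCre macrophages, mice 1 to 4 had 14.97, 14.50, 14.85 and 14.85. With RSG the same mice had 15.67, 15.42, 15.27 and 15.29. The RSG-treated arrays of this genotype were all above its vehicle-treated arrays, and mouse 2 had the lowest vehicle value.

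In Pparg fl/- LysCre macrophages, the vehicle-treated cultures of mice 5 to 8 had 14.90, 14.65, 14.71 and 14.77. Their RSG-treated cultures had 15.14, 14.69, 14.85 and 15.12. These groups overlapped: the RSG values of mice 6 and 7 lay within the range of the vehicle values, and mouse 5 was the highest of each group.

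Levels in iDCs were lower. Vehicle-treated Pparg+/- LysCre iDCs had 14.18, 14.09, 14.27 and 13.97 in mice 1 to 4, and the RSG-treated ones 14.35, 14.33, 14.56 and 14.24. Only the RSG value of mouse 4 lay below a vehicle value, that of mouse 3. Vehicle-treated Pparg fl/- LysCre iDCs had 14.49, 14.06, 14.32 and 14.29 in mice 5 to 8, and the RSG-treated ones 14.70, 14.56, 14.60 and 14.49. Here the groups did not overlap, although the lowest RSG value (mouse 8) was barely above the highest vehicle value (mouse 5).

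**Figure D1:**
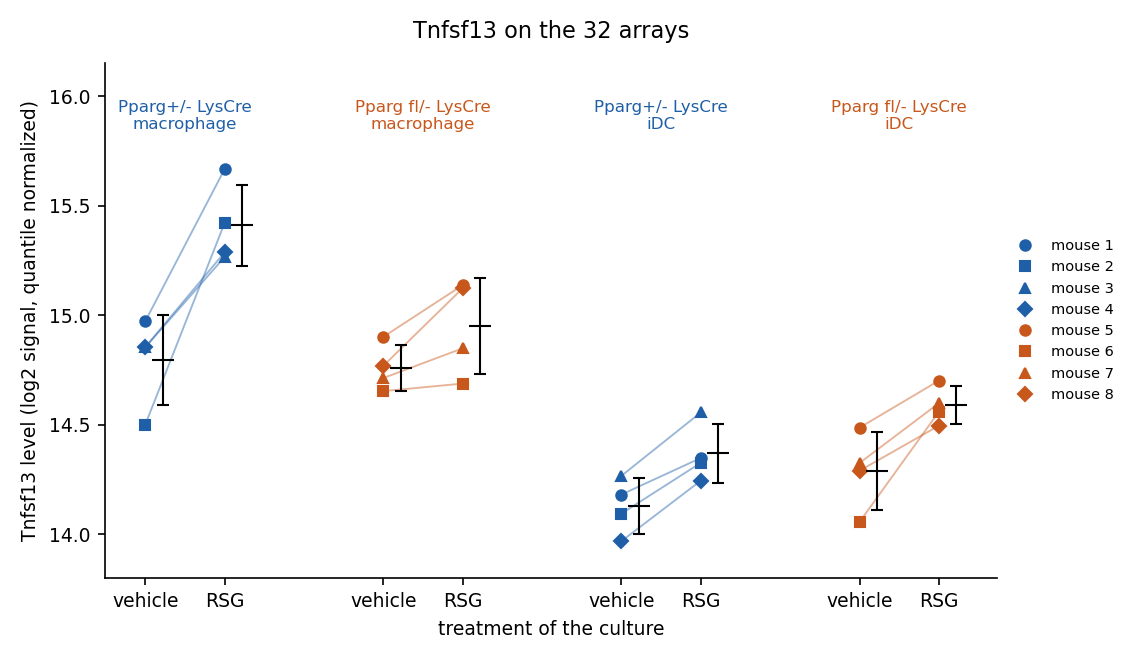
*Tnfsf13* level (log2 signal, quantile normalized) on each array by genotype, cell type and treatment, with 1 symbol per mouse, a line joining the cultures of a mouse, and the mean ± SD of 4 mice in black. The 4 RSG-treated Pparg+/- LysCre macrophage arrays (15.27 to 15.67) lie above all others, and the iDC arrays occupy the lower part of the scale.

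Ordered by group mean, RSG-treated Pparg+/- LysCre macrophages came first (15.41 ± 0.18 SD, n = 4). RSG-treated Pparg fl/- LysCre macrophages followed (14.95 ± 0.22), then vehicle-treated macrophages of the Pparg+/- LysCre (14.79 ± 0.20) and Pparg fl/- LysCre mice (14.76 ± 0.11). Below them were RSG-treated iDCs of the Pparg fl/- LysCre (14.59 ± 0.09) and Pparg+/- LysCre mice (14.37 ± 0.13). Vehicle-treated iDCs came last, at 14.29 ± 0.18 in Pparg fl/- LysCre and 14.13 ± 0.13 in Pparg+/- LysCre mice. Of neighbours in this order, the first and second did not overlap and differed by 0.46. All other neighbours overlapped in their single arrays, with gaps of 0.04 to 0.22. Without mouse 5 the Pparg fl/- LysCre means were 14.89 ± 0.22 (macrophages, RSG), 14.71 ± 0.06 (macrophages, vehicle), 14.55 ± 0.05 (iDCs, RSG) and 14.22 ± 0.15 (iDCs, vehicle), n = 3, and the order was the same. Under median scaling with all mice, vehicle-treated Pparg+/- LysCre macrophages (6.42) came before RSG-treated Pparg fl/- LysCre macrophages (6.35). Fewer cells of a type and less RNA per cell cannot be told apart in such bulk RNA.

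RSG went with a higher *Tnfsf13* level in each of the 8 mice and both cell types under quantile normalization, and the difference was largest in Pparg+/- LysCre macrophages. There the RSG minus vehicle differences of mice 1 to 4 were 0.70, 0.92, 0.41 and 0.43, with a mean of 0.62 ± 0.24 (SD, n = 4), or 1.53-fold. Of all tested probes, 3.62% had a larger difference, 12.5% were higher with RSG in 4 of 4 mice and 4.92% had RSG arrays entirely above their vehicle arrays. Within scan days the mean difference was 0.81 (mice 1 and 2) and 0.42 (mice 3 and 4). Before any scaling the mean difference was 0.59. The unscaled signals of mice 1 to 3 were 27653, 25714 and 26702 with vehicle and 59061, 51177 and 36488 with RSG. That of mouse 4 was 38125 with vehicle and 33534 with RSG, in the opposite direction. Unscaled signals were also lower with RSG in macrophages of mouse 6 (34167 with vehicle and 20897 with RSG). In iDCs the same held for mouse 3 (25132 and 23682), mouse 5 (36650 and 15079) and mouse 7 (22024.5 and 18354.5).

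In Pparg fl/- LysCre macrophages the differences of mice 5 to 8 were 0.24, 0.03, 0.14 and 0.35. Their mean was 0.19 ± 0.14 (1.14-fold), and 0.17 ± 0.16 without mouse 5 (n = 3). The arrays of the 2 treatments overlapped, and 12.5% of tested probes had a larger difference. Probes that were higher with RSG in 4 of 4 mice made up 6.3% here.

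Median scaling, which divides each array by its median signal, gave another picture of this group. Its differences were 0.31 for mouse 5 and -0.03, -0.06 and -0.03 for mice 6 to 8, a mean of 0.05 ± 0.17, or -0.04 ± 0.01 without mouse 5. In Pparg+/- LysCre macrophages the mean was 0.48 ± 0.35 under that scaling, with every mouse above 0. Median scaling also moved the median difference of all tested probes, from -0.03 to -0.18 in the Pparg+/- LysCre and from -0.01 to -0.13 in the Pparg fl/- LysCre cultures. Relative to that median, *Tnfsf13* stood at 0.65 (quantile) and 0.66 (median scaling) in Pparg+/- LysCre and at 0.20 and 0.18 in Pparg fl/- LysCre macrophages.

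**Figure D2:**
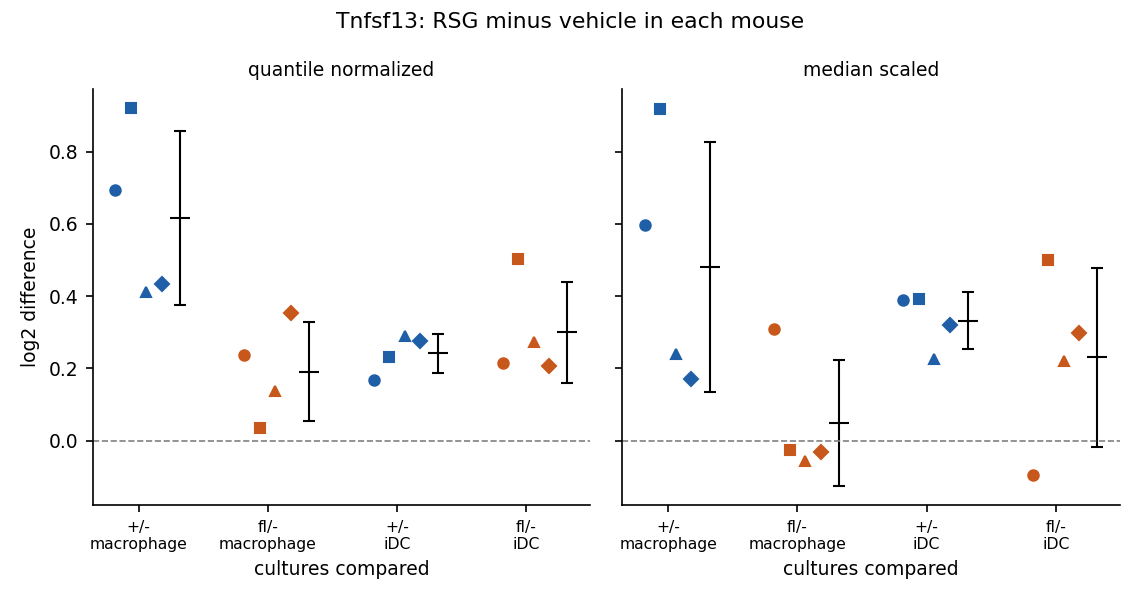
RSG minus vehicle difference of *Tnfsf13* (log2) in each mouse, under quantile normalization (left) and median scaling (right), for macrophages and iDCs of Pparg+/- LysCre (blue) and Pparg fl/- LysCre mice (orange). Black bars are the mean ± SD of 4 mice and the dashed line is no difference; circle, square, triangle and diamond stand for mice 1, 2, 3 and 4 in blue and 5, 6, 7 and 8 in orange. All points on the left lie above 0, whereas 4 Pparg fl/- LysCre points on the right lie below it, those of mice 6 to 8 in macrophages (-0.03, -0.06 and -0.03) and that of mouse 5 in iDCs (-0.10).

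The RSG difference in macrophages was smaller in the Pparg fl/- LysCre mice, at a difference of -0.43 on the log2 scale (SE 0.14, 4 mice each). The ranges of single mice, 0.03 to 0.35 and 0.41 to 0.92, did not overlap under quantile normalization, as was the case in this direction for 2.5% of tested probes. Under median scaling the difference was again -0.43, with ranges of -0.06 to 0.31 and 0.17 to 0.92, which overlapped through mouse 5. Without mouse 5 it was -0.44 (quantile) and -0.52 (median scaling), and the ranges did not overlap, as for 4.67% and 4.07% of tested probes with 3 mice against 4.

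In iDCs the RSG differences of the 2 genotypes overlapped under quantile normalization. Mice 1 to 4 had 0.17, 0.23, 0.29 and 0.28, with a mean of 0.24 ± 0.06 (1.18-fold). Mice 5 to 8 had 0.21, 0.50, 0.27 and 0.21, with a mean of 0.30 ± 0.14 (1.23-fold), or 0.33 ± 0.16 without mouse 5. The Pparg fl/- LysCre mean fell to 0.087 with the assay-normalized signal and changed sign without scaling (-0.0074), where the Pparg+/- LysCre mean was 0.35 and 0.23. Such differences were common: 26.2% of tested probes had a larger one in Pparg+/- LysCre and 15.2% in Pparg fl/- LysCre iDCs. Probes higher with RSG in 4 of 4 mice made up 19.5% and 12.7%, and 2.44% had RSG arrays entirely above vehicle arrays in Pparg fl/- LysCre iDCs.

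The difference between genotypes in the iDC response was 0.06 (SE 0.07), within the spread between mice, and its sign turned to -0.10 under median scaling and to -0.01 without mouse 6. It was -0.26 with the assay-normalized signal and -0.24 without scaling. Without mouse 5 it was 0.09 (SE 0.08) under quantile normalization and 0.0074 under median scaling. Under median scaling mouse 5 alone was lower with RSG in iDCs (-0.10), and the vehicle and RSG arrays of Pparg fl/- LysCre iDCs then overlapped. Without this mouse they did not, as was the case for 9% of tested probes with 3 mice.

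Set against macrophages, the iDC response to RSG differed by -0.37 ± 0.28 in Pparg+/- LysCre mice, with -0.53, -0.69, -0.12 and -0.16 in mice 1 to 4. It was 0.11 ± 0.27 in Pparg fl/- LysCre mice, where 2 of 4 mice were above 0, and its sign changed with the assay-normalized signal (-0.085), without scaling (-0.048) and without mouse 6 (-0.01). Under median scaling these means were -0.15 ± 0.29 and 0.18 ± 0.41. Without mouse 5 the Pparg fl/- LysCre mean was 0.15 ± 0.31 (quantile) and 0.38 ± 0.13 (median scaling, n = 3). The median of all tested probes in Pparg+/- LysCre mice was 0.05 (quantile) and 0.27 (median scaling), and *Tnfsf13* stood at -0.42 relative to it under both scalings. In Pparg fl/- LysCre mice it stood at 0.08 and 0.07 relative to that median.

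Without RSG, the genotype difference in macrophages was within its SE under quantile normalization. The Pparg fl/- LysCre minus Pparg+/- LysCre difference was -0.04 (SE 0.12), the arrays overlapped, and the sign changed without mouse 1 (0.02), without the mice with a flagged array (0.08) and without scaling (0.01). Without mouse 5 it was -0.08 (SE 0.12), and without mouse 2 it was -0.13. It was -0.12 under median scaling, -0.18 (SE 0.13) under that scaling without mouse 5, and -0.15 with the assay-normalized signal. With RSG it was -0.46 (SE 0.14), or 1.38-fold lower, and the highest Pparg fl/- LysCre array (15.14) lay below the lowest Pparg+/- LysCre array (15.27), as did 8% of tested probes. Without mouse 5 it was -0.52 (SE 0.15). Under median scaling the difference with RSG was -0.55, where mouse 5 (6.79) overlapped the lowest Pparg+/- LysCre array (6.73), and -0.70 without mouse 5, where no arrays overlapped (17.6% of tested probes with 3 mice against 4). Genotype and scan day cannot be told apart in these values.

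In iDCs the Pparg fl/- LysCre arrays had slightly higher means under quantile normalization. The difference was 0.16 (SE 0.11) with vehicle and 0.22 (SE 0.08) with RSG, and both pairs of groups overlapped. Without mouse 5 these were 0.10 (SE 0.10) and 0.18 (SE 0.08). Under median scaling the value with RSG was 0.01, and with the assay-normalized signal its direction turned (-0.089). The value with vehicle was 0.11 under median scaling, 0.01 under that scaling without mouse 5, and 0.44 without scaling.

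The cell types differed in the same direction in all 8 mice under quantile normalization and under median scaling. Vehicle-treated iDCs minus macrophages gave -0.79, -0.41, -0.59 and -0.89 in mice 1 to 4, a mean of -0.67 ± 0.21, which is 1.59-fold lower in iDCs. In mice 5 to 8 the values were -0.41, -0.60, -0.39 and -0.48, a mean of -0.47 ± 0.09 (1.38-fold lower), or -0.49 ± 0.10 without mouse 5. Neither pair of groups overlapped. Cell types differed for many genes: 23.4% and 18.4% of tested probes had iDC arrays entirely below macrophage arrays in the Pparg+/- LysCre and Pparg fl/- LysCre mice, and 18.5% and 25.5% had a lower difference than *Tnfsf13*. Probes lower in iDCs in 4 of 4 mice made up 31.3% and 28.5% with vehicle, and 26.9% and 23.6% with RSG. Unscaled signals went the other way with vehicle in mouse 5 (36650 in iDCs and 31183 in macrophages). With RSG they did so in mouse 6 (28191 and 20897) and mouse 8 (36083 and 28581).

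Among RSG-treated cultures the gap was wider in Pparg+/- LysCre mice. Mice 1 to 4 had -1.32, -1.09, -0.71 and -1.04, a mean of -1.04 ± 0.25 (2.06-fold lower in iDCs), and no arrays overlapped (21.1% of tested probes). Mice 5 to 8 had -0.44, -0.13, -0.25 and -0.63, a mean of -0.36 ± 0.22 (1.28-fold lower). There the RSG-treated iDC array of mouse 5 (14.70) reached the lowest macrophage array (14.69, mouse 6), and without mouse 5 the mean was -0.34 ± 0.26 with no overlap (22.5% of tested probes with 3 mice). Under median scaling the mean was -0.51 with mouse 5, and the groups did not overlap (14.7% of tested probes). It was -0.74 with the assay-normalized signal. Median scaling made the vehicle differences larger, -0.92 ± 0.30 and -0.70 ± 0.17, while the median of all tested probes moved from -0.05 to -0.19 and from -0.06 to -0.20.

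**Figure D3:**
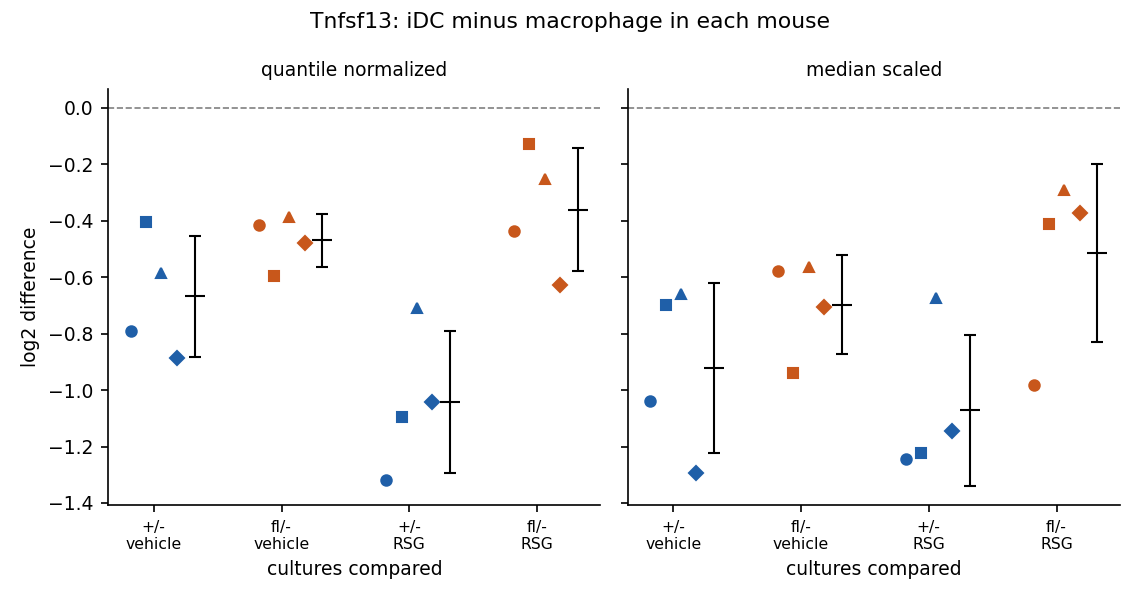
iDC minus macrophage difference of *Tnfsf13* (log2) in each mouse, under quantile normalization (left) and median scaling (right), for vehicle-treated and RSG-treated cultures of Pparg+/- LysCre (blue) and Pparg fl/- LysCre mice (orange). Black bars are the mean ± SD of 4 mice; circle, square, triangle and diamond stand for mice 1, 2, 3 and 4 in blue and 5, 6, 7 and 8 in orange. Every point lies below the dashed line of no difference.

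The position of a mouse within its groups was also followed across its 4 cultures. Mouse 5 was above its group mean on 4 of 4 arrays, by 0.16 on average, and mouse 6 on 0 of 4 arrays, with a mean deviation of -0.16. The SD between mice of a group, ran from 0.09 to 0.22 on the log2 scale.

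Of the receptors for APRIL, only TACI (*Tnfrsf13b*), found mainly on B cells, has a probe with a symbol here. It was detected on 0 of the 32 arrays, with an S/N between -5.58 and 1.65, so it is not well above background in any group and no change was read. The TNF receptor family member *Edar*, the ectodysplasin A receptor, was detected on 30 of 32 arrays. Its level varied strongly between mice of most groups (SD up to 2.28 on the log2 scale), and limma called it in 0 of 8 comparisons of treatment, genotype and cell type (0 of 8 also at an unadjusted p under 0.05).

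**Figure D4:**
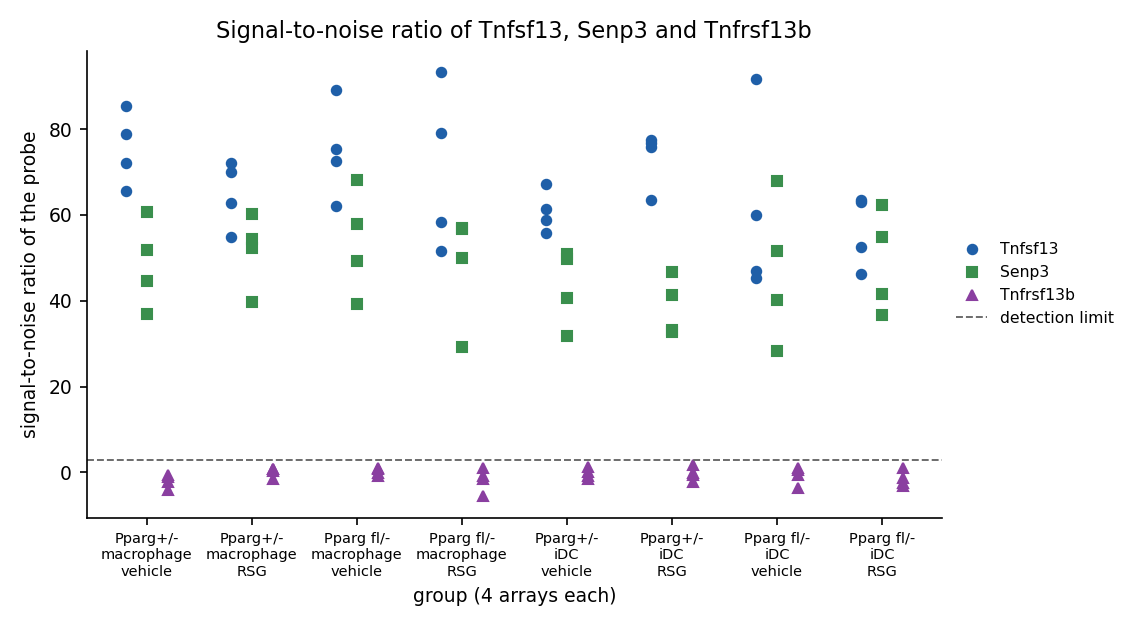
Signal-to-noise ratio of the probes of *Tnfsf13* (circles), its neighbour *Senp3* (squares) and the APRIL receptor gene *Tnfrsf13b* (triangles) on the 4 arrays of each group, with the detection limit of 3 as a dashed line. *Tnfsf13* runs from 45.4 to 93.3 and *Tnfrsf13b* stays at or below 1.65.

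Coverage of the wider pathway was thin. Lists of the APRIL and BAFF system (23 genes), other TNF superfamily ligands (15) and receptors (23), myeloid cytokines acting on B cells (8), PPARγ targets (16) and alternative activation genes (12) came to 97 genes. Of these, 3 have a probe with a symbol (*Tnfsf13*, *Tnfrsf13b* and *Edar*), and *Edar* was the only other gene tested. It was not called, against a background of 1.2% of tested probes called for RSG in macrophages of Pparg+/- LysCre and 0% in those of Pparg fl/- LysCre mice (497 probes at an unadjusted p under 0.05), and 6.01% and 0.692% in their iDCs. Without mouse 5 the shares were 2.38% in Pparg+/- LysCre macrophages, 7.62% in Pparg+/- LysCre iDCs and 0.397% in Pparg fl/- LysCre iDCs, and *Edar* was again not called. The background for cell type was 28.9% in Pparg+/- LysCre and 27.6% in Pparg fl/- LysCre mice. Neither *Tnfsf13b* (BAFF), *Furin* nor the targets *Fabp4* and *Angptl4* could be read by name.

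None of the 10 macrophage and 11 DC markers has a probe with a symbol, so the labelled cell types could not be checked against their markers. The same holds for the lists of 6 B cell, 4 T cell and 7 neutrophil markers. Of 5 eosinophil and mast cell genes, *Ear1*, an eosinophil-associated ribonuclease also made by macrophages, was detected on all 32 arrays, and limma called it in 3 of 8 comparisons. In Pparg+/- LysCre macrophages its mean was 17.54 ± 0.14 with vehicle and 19.29 ± 0.16 with RSG, and the arrays did not overlap (4.92% of tested probes). This difference of 1.75 was not called with all macrophage arrays sharing 1 estimate of the spread (adjusted p = 0.136, limma), was called with each mouse as a block (adjusted p = 0.00532, limma), and was called without mouse 5 (adjusted p = 0.00364, limma). In Pparg fl/- LysCre macrophages the RSG difference was 0.76 (adjusted p = 1.00, limma), or 1.01 without mouse 5, and was not called. In iDCs the RSG difference was 2.81 (adjusted p = 8.53e-05) in Pparg+/- LysCre and 2.29 (adjusted p = 0.0043) in Pparg fl/- LysCre mice. In vehicle-treated Pparg+/- LysCre cells the iDC minus macrophage difference was -2.56 (adjusted p = 2.74e-05). In vehicle-treated Pparg fl/- LysCre cells it was -0.55 (adjusted p = 0.344), or -0.04 without mouse 5, whereas *Tnfsf13* differed there by -0.47. In RSG-treated Pparg fl/- LysCre cells the mean of *Ear1* was 17.15 ± 0.45 in iDCs and 16.17 ± 0.91 in macrophages, which was not tested. Mice 6 to 8 had 17.38, 16.74 and 17.67 in iDCs and 15.84, 15.08 and 16.58 in macrophages, opposite to *Tnfsf13*, whereas mouse 5 had 16.82 and 17.19. In vehicle-treated macrophages the genotype difference was -2.12 (adjusted p = 0.0671), and -2.71 without mouse 5, which was called (adjusted p = 6.07e-05). Mouse 5 had 17.20 there, near the Pparg+/- LysCre mice, and mice 6 to 8 had 14.59 to 15.24. With RSG the macrophages of mouse 5 stayed at 17.19, below those of the Pparg+/- LysCre mice (19.18 to 19.53). The part of such cells in the *Tnfsf13* values was not tested.

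Of 4 erythroid markers, the alpha globin gene *Hba-a1* has a probe with a symbol. It was detected on 0 of 8 Pparg+/- LysCre macrophage arrays and on the macrophage arrays of mice 6, 7 and 8, where its level was 12.15 to 12.67. Mouse 5 had 8.59 (vehicle) and 8.67 (RSG). limma called it in 0 of 8 comparisons (2 of 8 had an unadjusted p under 0.05, among them genotype in vehicle-treated macrophages). Without mouse 5 that genotype difference was 4.30 and was called (adjusted p = 8.34e-07, limma). The Pparg+/- LysCre arrays of that comparison were at noise levels (S/N 0.52 to 2.44). Only the direction of the difference can therefore be read, and its size is not exact. With each mouse as a block its iDC minus macrophage differences, 1.85 in Pparg+/- LysCre and -1.57 in Pparg fl/- LysCre cells, were called (adjusted p = 0.000482 and 0.00232, limma). The size of 1.85 is not exact either, since the same undetected macrophage arrays enter it. The -1.57 includes mouse 5, undetected in vehicle-treated macrophages (S/N 2.87). Without that mouse it was -2.08 and was called (adjusted p = 0.000574, limma without a block). Values on arrays where it was not detected are noise levels, and its part in the *Tnfsf13* genotype differences was not tested.

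Among the neighbours of *Tnfsf13*, *Senp3*, a SUMO protease gene that ends 493 bases from it (chr11:69673110-69682084), was detected on all arrays. RSG minus vehicle differences of *Senp3* in macrophages were -0.019 (SE 0.11) with the Pparg+/- LysCre and 0.0026 (SE 0.11) with the Pparg fl/- LysCre genotype. *Senp3* was not called for RSG in any group. Nor was it called for genotype in vehicle-treated cells, the only cells where its genotype difference was fitted. Its iDC minus macrophage difference was -0.48 (SE 0.12, adjusted p = 0.00141, limma) in Pparg+/- LysCre and -0.38 (SE 0.12, adjusted p = 0.00916, limma) in Pparg fl/- LysCre mice, in the same direction as *Tnfsf13* but under the 1.5-fold limit of a call. Under median scaling these were -0.72 and -0.61 and were called. The adjusted p in Pparg fl/- LysCre mice rose to 0.0715 by the methods' t-test. In limma it was 0.0816 with only the arrays compared and 0.0511 without mouse 5. *Slc35g3*, 74330 bases away on the other side, was detected on 0 of the arrays. *Tnfsf12*, *Polr2a* and *Eif4a1*, which lie between or beside them, have no probe with a symbol.

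Which probes followed the pattern of *Tnfsf13* was described by Pearson's r over the 32 arrays, which share mice, culture types and scaling. The median r of all tested probes was 0.02. Highest of all probes without a symbol were those listed as mCG141831 (r = 0.93) and mCG14917.2 (r = 0.91). With RSG, mCG141831 differed in macrophages by 0.84 (Pparg+/- LysCre) and 0.27 (Pparg fl/- LysCre), and in Pparg+/- LysCre iDCs by -0.0073.

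Of the 158 other tested probes with a symbol, *Dhrs7b*, a reductase of ether lipid synthesis, was most alike (r = 0.86). Its RSG difference in macrophages was 0.29 in the Pparg+/- LysCre and 0.11 in the Pparg fl/- LysCre mice, or 0.07 without mouse 5. *Lgals1*, which encodes the lectin galectin-1, had r = 0.81, *Tceal9* had r = 0.79 and *Lgals7*, for galectin-7, had r = 0.77. *Paqr9* had r = 0.75. *Lgals7* was detected on 27 and *Paqr9* on 12 of the 32 arrays, so part of both values rests on noise levels. *Lgals1* and *Tceal9* had iDC minus macrophage differences of -1.93 and -3.86 in vehicle-treated Pparg+/- LysCre cells, and *Tceal9* had RSG differences of -0.31 in Pparg+/- LysCre macrophages and 1.05 in iDCs of that genotype. 

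At the other end were *Ramp3*, which encodes a partner of the calcitonin receptor-like receptor (r = -0.77), the class I MHC gene *H2-Q8* (r = -0.76) and *Mapk7*, the gene for the kinase ERK5 (r = -0.75). In vehicle-treated Pparg+/- LysCre cells the iDC minus macrophage difference of *Ramp3* was 2.64. *H2-Q8* was detected on 23 of the 32 arrays and on 0 of 4 vehicle-treated Pparg+/- LysCre macrophage arrays, so its level there is not well above background and its r rests in part on noise levels.

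**Figure D5:**
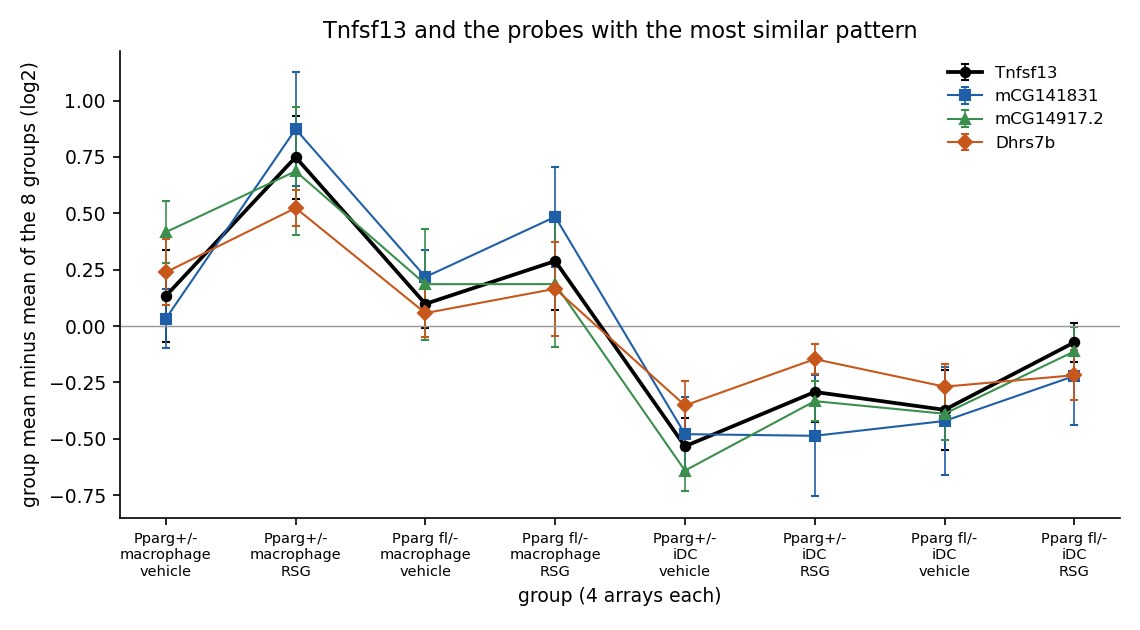
Mean of *Tnfsf13*, of the probes mCG141831 and mCG14917.2 and of *Dhrs7b* in each of the 8 groups, minus the mean of the 8 groups (log2, quantile normalized), with bars of 1 SD over 4 mice. All 4 probes peak in RSG-treated Pparg+/- LysCre macrophages and lie below 0 in the iDC groups.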

How the data were processed

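Single-color Applied Biosystems arrays were hybridized with digoxigenin-labeled cRNA and read by chemiluminescence. The authors deposited, per probe and array, a signal intensity, its SD, a signal-to-noise score (S/N), an assay-normalized signal and a flag, with no scaling between arrays. They also deposited a table with a ratio for each probe and array. How the scanner output was made is not given in the sources used here. For 99.9% of probes with an S/N of 1 or less, the listed signal is its SD, so such values are noise.

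Signals of 33012 noncontrol probes were log2 transformed and quantile normalized over 32 arrays. A probe was tested where 3 or more of the 4 arrays of any group had an S/N of at least 3 (16620 probes), with limma 3.58.1 (R 4.3.3). RSG and genotype were fitted in the arrays of a cell type, and cell type in all 32. The fit took a mean per group and no term for the mouse. Its p values and calls thus leave out the pairing of cultures, except where a block is named. Calls needed a Benjamini-Hochberg adjusted p under 0.05 and 1.5-fold. In simulated data with 200 changed probes the fit recovered 42% (RSG in Pparg fl/- LysCre iDCs) to 63% (cell type).

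Of all probes, 316 (0.957%) received a symbol through RefSeq accessions (GRCm38.p6), of which 159 were tested. The gene and the lists were chosen with earlier results of these data known. Genes named are those of the lists with a probe, the 3 nearest genes on each side with a probe, the 5 most and 3 least alike probes with a symbol and the 2 most alike without. Genes outside this rule appear only as not measured.

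The labels give a mouse number to every array, so that cultures pair by animal. Deviations from group means correlated with a median of 0.28 between arrays of a mouse and cell type, and 0.15 across the cell types of a mouse. Between mice of a cell type the median was -0.09. That value is pulled below 0 because the deviations in a group sum to 0. The *Tnfsf13* differences were taken within a mouse where possible, using Python 3.11.15 (pandas 2.3.3, numpy 2.4.6). Alternatives were median scaling, the deposited ratios, the assay-normalized signal, no scaling, an offset, other filters and thresholds, the methods' t-test, blocks for mouse and scan day, and leaving out each mouse. Some alternatives were added after seeing the data: leaving out the mice with a flag, the reference to all tested probes and the blocks for *Tnfsf13*, *Ear1* and *Hba-a1*. So were the values without mouse 5, except the planned ones. Planned were those of the *Tnfsf13* differences under quantile normalization, of *Senp3* and of the pathway calls.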

Additional observations from a re-analysis of the deposited data

Results flagged for a closer look

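Of 50 sets of 4 values checked, 7 held a value far from the other 3, judged by the gap to its neighbour as a share of the set's range against Dixon's critical value. Chance gives about 1 in 20. For *Tnfsf13* this was the S/N in RSG-treated Pparg+/- LysCre iDCs (0.888), where mouse 3 had 63.5 and the others 75.8 to 77.4. For *Senp3* the share was 0.832 in RSG-treated Pparg fl/- LysCre macrophages (mouse 6) and 0.932 in RSG-treated Pparg+/- LysCre iDCs (mouse 4). For *Ear1* it was 0.839 in RSG-treated Pparg+/- LysCre macrophages (mouse 3).

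For *Hba-a1*, mouse 5 stood below the other Pparg fl/- LysCre mice, with 0.886 in vehicle-treated macrophages, 0.915 in RSG-treated macrophages and 0.833 in RSG-treated iDCs. Its S/N there was 2.87, 1.71 and 0.80, all under the detection limit of 3, so these values of mouse 5 are noise levels.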

How the results depend on the processing

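Of 211 values of the 16 *Tnfsf13* differences under alternatives other than blocks, 187 moved by less than 1 SD and 13 changed sign. The RSG difference in Pparg+/- LysCre macrophages ran from 0.51 to 0.68 without each mouse. Median scaling moved the RSG difference to 0.0484 in Pparg fl/- LysCre macrophages and to 0.33 in Pparg+/- LysCre iDCs, the genotype difference in RSG-treated iDCs to 0.00631, and that of the iDC responses to -0.10. It moved the vehicle cell type differences to -0.92 and -0.70. The deposited ratios gave 0.0483, 0.33, 0.00658, -0.10, -0.92 and -0.70 for the same 6. The assay-normalized signal gave 0.35 and 0.0867 for RSG in Pparg+/- LysCre and Pparg fl/- LysCre iDCs, -0.0892 and -0.26 for those genotype differences, and -0.98, -0.65 and -0.74 (RSG-treated Pparg fl/- LysCre) for cell type. Unscaled, RSG gave 0.0403 in Pparg fl/- LysCre macrophages and -0.00742 in iDCs, genotype 0.44 in vehicle-treated iDCs, its difference in iDC response -0.24, and cell type -0.35 in Pparg fl/- LysCre vehicle cells. The causes were not tested.

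With each mouse as a replicate block the RSG difference of *Tnfsf13* in Pparg+/- LysCre macrophages is 0.62 by construction, since every mouse gave both cultures. The block changed 3 calls of other named genes, given with *Ear1* and *Hba-a1*, and raised the probes called for RSG from 199 to 494 (Pparg+/- LysCre) and 0 to 5 (Pparg fl/- LysCre) among macrophages, and 115 to 202 for Pparg fl/- LysCre iDCs. The number of pathway genes called, out of the 1 tested, was 0 in all 8 comparisons and under all 144 alternative fits. Of the 5 most alike probes with a symbol, 3 remained among the first 5 under median scaling, 3 over the 8 group means and 4 by Spearman's rho. *Senp3* passed the fold limit for cell type under median scaling, the ratios and without that limit. In Pparg fl/- LysCre mice its adjusted p for cell type was 0.0715 by the methods' t-test. In limma it was 0.0816 when other arrays were left out of the fit and 0.0511 without mouse 5.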
